A study of Mus musculus with 27 samples.

Results

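The comparison set islets from mice 4 days after the end of a 21 day course of tamoxifen against islets from untreated mice. Arrays were chosen by their titles, and 6 of the 27 arrays of the series belong to it, 3 of the islets 4 days off drug and 3 of the untreated islets. All mice carried 2 transgenes, MycER and BclXL, each driven by an insulin promoter, so that the untreated animals had both transgenes as well. The mice of the regression group had received tamoxifen every day for 21 days and were killed 4 days after the last dose, while the untreated mice are the time 0 controls of an acute experiment with 4-hydroxytamoxifen. No group given vehicle alone and no group without MycER is labelled, so effects of Myc, of the drug and of the time since dosing cannot be told apart. The insulin promoter limits both transgenes to beta cells, but the islets were cut out by laser capture and also hold other islet, vascular and stromal cells. Each array was made from RNA amplified in 2 rounds, and no label ties an array to its own mouse. The spread behind the p-values is therefore that between samples, which may be technical.

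MycER joins the transcription factor Myc to part of the estrogen receptor, which keeps Myc inactive until tamoxifen or its active form binds. Myc pairs with Max and binds E-box sequences, and it is known for driving ribosome production, metabolism and the cell cycle. BclXL blocks apoptosis, so beta cells in these mice can expand while Myc is on, and the tumours regress after the drug is withdrawn.

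Values are log2 levels as deposited by the authors, and 1 unit is a factor of 2. A gene was represented by 1 probe set, the brightest over all 27 arrays, and 8251 genes were tested. It was called at a Benjamini-Hochberg adjusted p under 0.05 in limma, fitted to all 27 arrays with 18 residual degrees of freedom. The 3 arrays 4 days off drug correlated with each other at 0.988 to 0.992, and the untreated arrays at 0.978 to 0.984. Untreated array 1 stood apart from the other 2, and correlated with the 4 days off arrays at 0.944 to 0.956 against 0.962 to 0.974 for untreated arrays 2 and 3, so counts are given without it as well. Bacterial control probe sets, whose targets mouse cells lack, had means from 3.57 to 7.14 with a median of 4.00. Of the called genes, 442 had both group means under the highest of these, and the order of levels in that range is uncertain.

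After 4 days without drug the islets did not have the expression profile of untreated islets. Among 8251 genes, 2183 (26.5%) were called, 1167 higher (14.1%) and 1016 lower (12.3%). The rises were larger than the falls: the median called rise was 0.84 and the median called fall was -0.47 on the log2 scale, and 396 genes rose at least 2-fold while 57 fell by as much. At 4-fold the counts were 15 and 4. Proteasome, ribosome biogenesis and respiratory chain genes were among the rises, while the falls held Mx1, Papss2 and many genes of low fold. Without untreated array 1 there were 1463 called genes, 838 higher (10.2%) and 625 lower (7.57%). List counts without that array are to be read against these shares. The levels of 3551 genes (43%) did not overlap between the 3 arrays of each group.

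**Figure D1:**
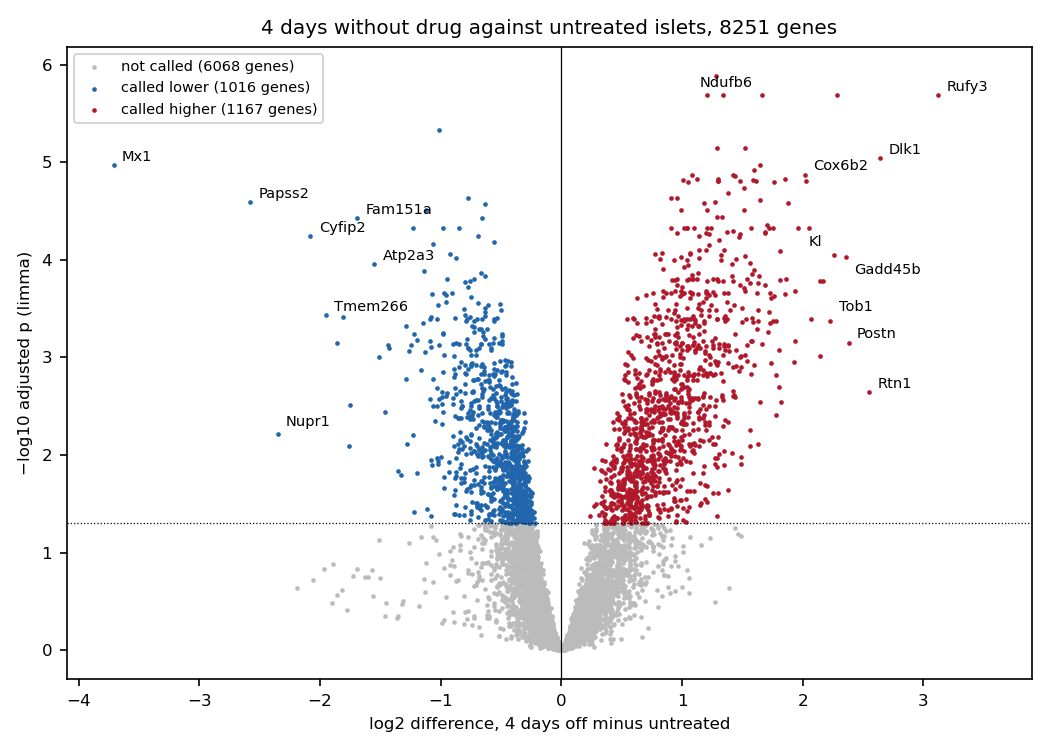
Difference between islets 4 days off drug and untreated islets for 8251 genes, with the log2 difference on the x axis and −log10 of the adjusted p from limma on the y axis; red points were called higher (1167), blue points lower (1016), grey points were not called (6068), and the dotted line marks an adjusted p of 0.05. Rufy3 lies farthest to the right at 3.12 and Mx1 farthest to the left at -3.71, and large differences are more often rises than falls.

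The 15 largest rises among called genes whose groups did not overlap lay between 2.02 and 3.12. Several of them act at membranes or in the cytoskeleton of neurons and endocrine cells, others restrain growth, and 1 is a matrix protein. Rufy3, a RUN and FYVE domain protein known from axons, had levels of 7.08, 6.63 and 6.79 on untreated arrays 1 to 3 and of 10.14, 10.06 and 9.66 on the 4 days off arrays. Its rise of 3.12 ± 0.30 (SE, n = 3 per group, adjusted p 2.05e-06 in limma) was the largest of all, an 8.69-fold difference, and every array off drug was above every untreated array. It rests on 1 probe set of a class that the array's maker chose under relaxed rules.

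Dlk1, an imprinted transmembrane protein of endocrine progenitors and beta cells, stood at 7.67, 7.75 and 7.40 in untreated islets and at 9.92, 10.87 and 9.96 after 4 days off drug. The rise was 2.64 ± 0.29, or 6.25-fold, with an adjusted p of 9.08e-06. Other imprinted genes also rose, Ndn by 1.38 and Sgce by 0.96, but 4 of the 33 measured genes of the imprinted and progenitor list rose and 2 fell, 18.2% called against 26.5% of all genes. Meg3, a noncoding RNA of the Dlk1 locus, had means of 12.70 and 13.44 and an adjusted p of 0.0556. Rtn1, a reticulon that shapes the endoplasmic reticulum of neuroendocrine cells, was at 6.11, 6.48 and 7.27 in untreated islets and between 8.92 and 9.31 afterwards, a rise of 2.55 ± 0.55 (adjusted p 0.00228).

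Among growth restraint genes, Gadd45b, a stress sensor that promotes growth arrest, rose from 7.46, 6.87 and 7.28 to 9.90, 9.47 and 9.32. The difference was 2.36 ± 0.35 (adjusted p 9.45e-05), and its other probe set, with a rise of 0.94, was also called. Tob1, an antiproliferative protein of the BTG and TOB family, was at 5.98, 7.32 and 7.40 in untreated islets and at 9.34, 9.19 and 8.87 off drug, a rise of 2.23 ± 0.39 (adjusted p 0.000425) in which untreated array 1 was the lowest. A second, dim probe set of Tob1 had a difference of 0.02 and was not called. Its relative Btg1 rose by 1.35. Of the 33 measured D cyclins, CDK inhibitors and other growth restraint genes, 8 rose (24.2%) and 3 fell (9.09%), or 7 and 1 without untreated array 1, where the shares of all genes were 10.2% and 7.57%. The cyclins Ccnd1 and Ccnd2 and the inhibitor Cdkn1b were not called, with differences of -0.21, -0.05 and -0.09. At the end of the 21 day course 7 of the 33 were already called higher than untreated and 2 lower, where 7.95% and 8.46% of all genes were. Gadd45b, Tob1 and Btg1 then had means of 9.01, 8.02 and 8.75, and none was called between 21 days and 4 days off.

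The other large rises were of mixed function. Postn, a matrix protein of activated stroma, rose by 2.38 from 6.83, 6.89 and 6.60 to 9.44, 8.86 and 9.16. Kl, the klotho coreceptor for a fibroblast growth factor, rose by 2.26 from levels of 4.37 to 4.72, which lie in the range of the bacterial controls, to 6.31 to 7.25. D430019H16Rik rose by 2.28, the septin Septin7 by 2.17, the cell surface protein Nptn by 2.14, the transcription coregulator Cited2 by 2.07, the cohesin subunit Rad21 by 2.05 and the receptor component Ramp1 by 2.03. Untreated array 1 was the lowest of the 6 arrays for Septin7, Nptn, Cited2 and Rad21, and all 4 were called without it. Cox6b2, a cytochrome c oxidase subunit best known from testis, rose by 2.02 in its representative probe set, but its 2 other probe sets gave 0.67 and -0.77, each called, so the direction for this gene is uncertain.

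Falls of similar size were fewer. Mx1, an interferon-induced antiviral GTPase, had levels of 7.70, 8.29 and 8.23 in untreated islets and of 4.14, 4.74 and 4.21 after 4 days off drug. It fell by 3.71 ± 0.41 (SE, adjusted p 1.06e-05), or 13.1-fold in the measured values. The levels off drug lay within the range of the bacterial controls, so the measured fold may understate the fall. Papss2, a synthase of the activated sulfate used in sulfation, fell by 2.58 ± 0.32 from 7.77, 8.86 and 9.22 to 5.91, 6.24 and 5.96 (adjusted p 2.54e-05). For both genes all 3 arrays off drug lay below the lowest untreated array.

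Cyfip2, a subunit of the WAVE complex of actin assembly, was at 9.75, 9.54 and 9.71 in untreated islets and at 7.04, 7.69 and 8.04 off drug, and fell by 2.08 ± 0.29 (adjusted p 5.67e-05). Atp2a3, a calcium pump of the endoplasmic reticulum, fell by 1.55 from a mean of 11.51 to 9.95, while its 2 dimmer probe sets gave -0.23 and -0.12 and were not called. Itpr2, a calcium release channel of the same membrane, fell by 1.76 from 10.27, 8.57 and 9.38 to 7.08, 7.78 and 8.08. Of its 3 other probe sets 1 was called, at -0.69, and the others gave -0.09 and -0.10. Without untreated array 1 its adjusted p was 0.0657, and without the first array off drug it was 0.0529. Nupr1, a stress-induced chromatin protein, was at 10.90, 8.55 and 8.95 in untreated islets and at 6.38, 7.0 and 7.96 off drug, and fell by 2.35 ± 0.59 (adjusted p 0.00608). Its highest value was untreated array 1, and without that array the difference was -1.64 with an adjusted p of 0.0564.

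Of the remaining falls, the voltage-sensing protein Tmem266 fell by 1.95, the antimicrobial peptide gene Defb1 by 1.86 and Bckdhb, of branched-chain amino acid breakdown, by 1.81. Nrp1, a coreceptor for semaphorins and VEGF, fell by 1.75 in the representative probe set and was not called in the other (0.48). Fam151a fell by 1.69, with untreated levels of 10.14 to 10.29 and levels off drug of 8.28 to 8.68. The RNA-binding protein Rbm14, the transporter family member Slc22a23, Nkain1 and the methyltransferase Gnmt fell by 1.51, 1.46, 1.44 and 1.43.

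**Figure D2:**
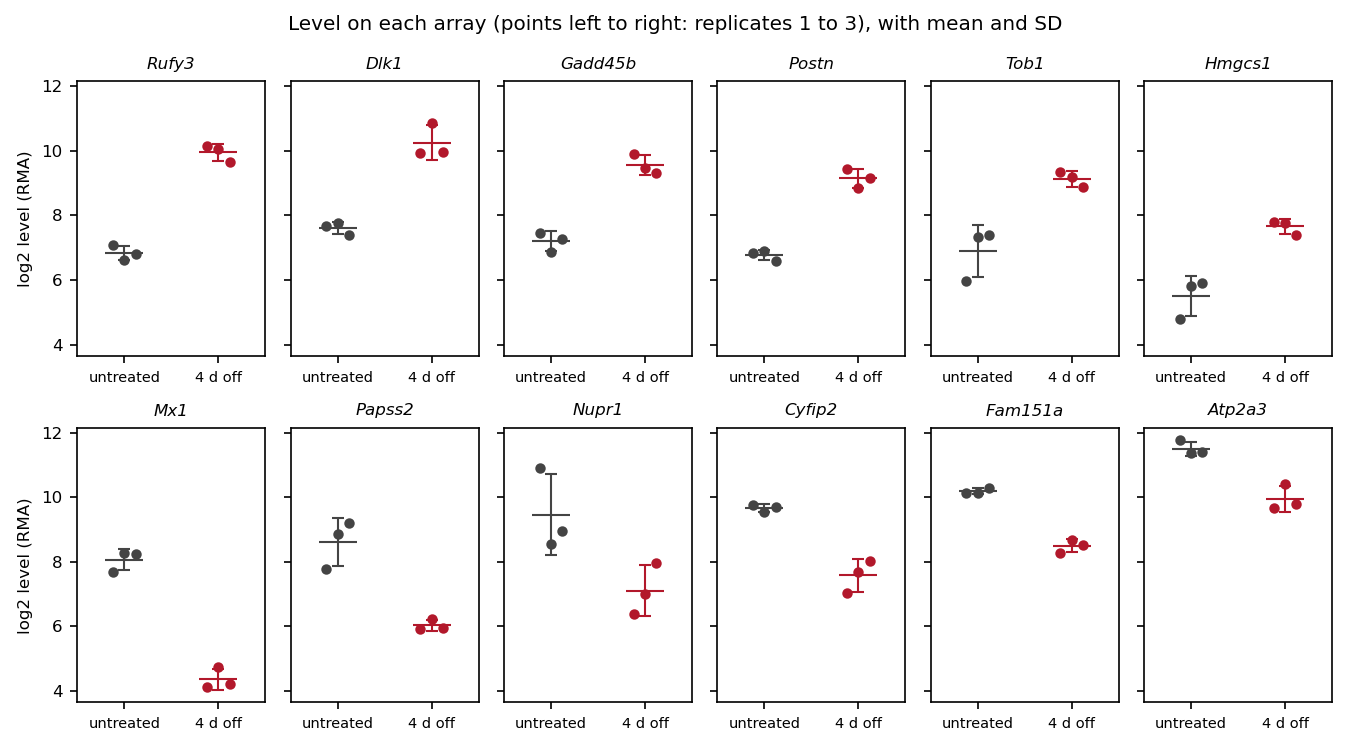
Log2 level of 12 genes on each of the 6 arrays, untreated in grey and 4 days off drug in red; points from left to right are replicates 1 to 3, and the line and bar are the mean and SD of 3 arrays. The groups do not overlap for any of the 12 genes, the gap is widest for Mx1, and untreated array 1 is the lowest of its group for Tob1 and Hmgcs1 and the highest for Nupr1.

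Among ribosome production genes, a group that Myc is known to drive, rises outnumbered falls 4 days after the last dose. Of 72 measured ribosome biogenesis genes, 20 rose (27.8%, against 14.1% of all genes) and 4 fell (5.56%), with a median difference of 0.11 against -0.06 over all genes. Without untreated array 1 the counts were 11 (15.3%, against 10.2%) and 0. At the end of the 21 day course 6 of the 72 were called higher than untreated and 3 lower, with a median of 0.05. Of all genes 7.95% and 8.46% were so called, so an excess of rises over all genes of the size seen off drug was not seen at 21 days. Pno1, an assembly factor of the small ribosomal subunit, was at 5.71, 6.66 and 7.09 in untreated islets and at 8.37, 7.79 and 8.23 off drug, a rise of 1.64 ± 0.25 (adjusted p 0.000148). Npm1, the nucleolar chaperone nucleophosmin, rose by 1.63 from 8.79, 10.02 and 10.22 to 11.54, 11 and 11.37. Utp4, of the early small subunit complex, rose by 1.29 from 7.77, 7.87 and 8.08 to 9.31, 9.18 and 9.10. Of the 33 measured ribosomal proteins themselves 5 rose, Rps7 by 0.76 among them, and 5 fell (15.2% each, against 14.1% and 12.3% of all genes). Without untreated array 1 the counts were 2 and 2.

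The E-box core CACGTG reads the same on both strands and was searched in RefSeq promoters of GRCm38.p6, from 250 bases before to 50 after each annotated start. Promoters were matched for 6572 of the 8251 genes. The core was present for 11.5% of them, for 12.1% of the 947 called higher and for 12.6% of the 817 called lower, so neither direction stood far from the whole array. In the ribosome biogenesis list 15 of 62 genes held it (24.2%), and 5 of the 14 called higher. A match is a description of the letters and not of binding. Shown with the core in capitals are 2 risen ribosome biogenesis genes, and Gadd45b and Nupr1 from among the largest rises and falls. The windows are chr11:17211540-17211839 (minus strand), chr8:106893390-106893689 (plus), chr10:80929841-80930140 (plus) and chr7:126625421-126625720 (minus).
Pno1: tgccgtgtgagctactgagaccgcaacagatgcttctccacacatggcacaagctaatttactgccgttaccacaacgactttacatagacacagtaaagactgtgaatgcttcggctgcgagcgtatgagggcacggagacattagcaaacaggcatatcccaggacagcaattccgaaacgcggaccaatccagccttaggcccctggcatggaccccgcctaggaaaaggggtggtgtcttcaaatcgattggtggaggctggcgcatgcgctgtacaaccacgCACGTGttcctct
Utp4: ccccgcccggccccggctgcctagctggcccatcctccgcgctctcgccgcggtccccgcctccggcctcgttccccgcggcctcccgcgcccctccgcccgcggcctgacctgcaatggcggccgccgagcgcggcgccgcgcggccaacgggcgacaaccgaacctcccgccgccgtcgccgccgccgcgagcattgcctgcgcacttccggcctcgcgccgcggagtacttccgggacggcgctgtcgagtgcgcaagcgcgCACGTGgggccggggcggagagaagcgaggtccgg
Gadd45b: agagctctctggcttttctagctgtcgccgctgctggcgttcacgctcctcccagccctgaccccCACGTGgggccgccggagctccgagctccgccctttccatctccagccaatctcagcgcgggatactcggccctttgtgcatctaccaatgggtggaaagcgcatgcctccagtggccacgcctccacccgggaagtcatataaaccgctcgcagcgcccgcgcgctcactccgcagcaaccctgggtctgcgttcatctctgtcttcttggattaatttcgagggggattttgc
Nupr1: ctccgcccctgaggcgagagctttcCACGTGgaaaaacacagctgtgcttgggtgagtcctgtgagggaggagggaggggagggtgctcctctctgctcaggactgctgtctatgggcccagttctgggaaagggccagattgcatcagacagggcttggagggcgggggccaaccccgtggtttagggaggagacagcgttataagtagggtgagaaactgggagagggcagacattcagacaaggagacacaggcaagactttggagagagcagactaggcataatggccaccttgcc
The core began 37 bases after the annotated start in Pno1 and 15 after it in Utp4, and at -185 and -225 from it in Gadd45b and Nupr1.

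Protein turnover and mitochondrial genes had more rises than falls. Proteasome genes had the highest share of rises of the 44 lists: 15 of 39 rose (38.5%) and 4 fell (10.3%), with a median of 0.41, and without untreated array 1 the counts were 11 and 2. The core particle subunit Psma5 was at 8.65, 9.15 and 9.21 in untreated islets and at 10.65, 10.49 and 10.66 off drug, a rise of 1.60 ± 0.18 (adjusted p 1.21e-05). Its relatives Psma7 and Psma4 rose by 1.16 and 1.12. Among lysosome and autophagy genes 14 of 45 rose and 6 fell (31.1% and 13.3%), or 9 and 4 without untreated array 1. The lysosomal protease Ctsl rose by 1.35 and the autophagy conjugation factor Atg5 by 1.14. Atp6v1a, of the proton pump, rose by 1.69 in its brightest probe set, while its other 2 gave 0.01 and 0.23 and were not called.

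Of the 69 respiratory chain and ATP synthase genes, 19 rose (27.5%) and 6 fell (8.70%), and without untreated array 1 the counts were 19 and 5. Ndufb6, a subunit of complex I, was at 6.94, 7.11 and 7.46 in untreated islets and at 9.03, 8.62 and 8.84 off drug. Its rise of 1.66 ± 0.16 had an adjusted p of 2.05e-06, and Ndufv2 of the same complex rose by 1.69. In the mitochondrial ribosome and import list 15 of 61 genes rose and 6 fell (24.6% and 9.84%), or 10 and 4 without untreated array 1. Mrps22 rose by 1.52 and Mrpl23 fell by 1.29. Mrpl2 rose by 1.26 in 1 probe set and had a difference of -0.12, not called, in another. Cytochrome c, Cycs, rose by 1.28. Pdk3, a kinase that restrains the entry of pyruvate into mitochondria, rose by 1.17, and 4 glycolysis genes of 28 rose and 4 fell (14.3% each, near the 14.1% and 12.3% of all genes), or 2 and 2 without untreated array 1.

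Redox genes were called in both directions. Among 42 antioxidant genes 11 rose and 6 fell (26.2% and 14.3%), and the counts were the same without untreated array 1. Thioredoxin, Txn1, rose by 1.37 and the mitochondrial thioredoxin reductase Txnrd2 by 1.48, from 7.65, 7.33 and 7.20 to 9.17, 8.77 and 8.68. The metallothionein Mt2 fell by 1.29. Of the cytosolic chaperones 6 of 42 rose and 4 fell (14.3% and 9.52%, against 14.1% and 12.3% of all genes). Without untreated array 1, 3 rose and 7 fell (7.14% and 16.7%, against 10.2% and 7.57% of all genes). Among them Cct8, a subunit of the chaperonin that folds actin and tubulin, rose by 1.85 ± 0.22 (adjusted p 1.48e-05).

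Sterol synthesis genes split by enzyme. Of 25 measured cholesterol and fatty acid genes 9 rose and 5 fell, 56.0% called against 26.5% of all genes, and 6 and 3 without untreated array 1. Hmgcs1, which makes the precursor of mevalonate, was at 4.80, 5.82 and 5.92 in untreated islets and at 7.80, 7.78 and 7.39 off drug, a rise of 2.14 ± 0.42 (adjusted p 0.000974). Sqle, which makes squalene epoxide, rose by 1.30 from levels of 8.02 to 8.47 to levels of 9.56 to 9.61, and Idi1 rose by 1.23. Other enzymes of the same route went the other way: Lss fell by 0.69 and Mvd by 0.59, a pair named here after their values were seen.

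Translation and secretory pathway lists had called members on both sides. In the translation list 14 of 62 rose and 11 fell (22.6% and 17.7%, against 14.1% and 12.3% of all genes). Without untreated array 1 the counts were 11 and 6. The initiation regulator Bzw1 rose by 1.74 and the synthetase cofactor Aimp1 by 1.40. The release factor Etf1 rose by 1.34 and 1.32 in 2 probe sets, while 3 others had differences between -0.18 and 0.01. The tRNA synthetase genes Nars, Yars and Mars1, named after their values were seen, fell by 1.06, 0.99 and 0.89. Synthetases were called on both sides, and the rest are named here for the same reason. Rars, Hars and Iars rose by 1.04, 0.95 and 0.55, while Lars, Sars, Vars and Wars fell by 0.60, 0.63, 0.52 and 0.71. Nars stood at 9.04, 9.0 and 9.23 in untreated islets and at 8.18, 7.88 and 8.02 off drug.

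Of 49 unfolded protein response and endoplasmic reticulum genes 9 rose and 9 fell (18.4% each), with a median of 0.04. Without untreated array 1, 5 rose and 9 fell (10.2% and 18.4%, against 10.2% and 7.57% of all genes). The translocon genes Ssr3 and Sec61b rose by 1.50 and 1.21, although the other 2 probe sets of Ssr3 gave -0.27 and 0.07 and were not called. The disulfide isomerase Pdia3 rose by 1.27, with an adjusted p of 0.0603 without untreated array 1 and of 0.0581 without the first array off drug. The folding factor Creld2, the prolyl isomerase Fkbp11 and the stress factor Ddit3, named after their values were seen, fell by 1.09, 1.03 and 0.99. Xbp1, a transcription factor of the response, was at 9.73, 9.77 and 9.81 in untreated islets and at 9.27, 9.19 and 9.26 off drug. The difference of -0.53 had a 95% interval from -1.02 to -0.04 before adjustment and an adjusted p of 0.111, so Xbp1 was not called although its groups did not overlap.

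Among cell division genes few were called, where 26.5% of all genes were. Of 60 mitosis genes 5 rose and 2 fell (11.7% called), and of 66 DNA replication genes 6 rose and 1 fell (10.6%). The counts were 3 and 0 for mitosis and 3 and 1 for replication without untreated array 1. The spread behind these calls came from all 27 arrays. Counting genes whose groups did not overlap, 13 of 60 mitosis genes lay higher off drug and 13 lower. For replication the counts were 12 and 10 of 66, and over all 8251 genes they were 1606 and 1945. Rad21, described above, and Bub3 (1.32) rose, the latter in 1 probe set of 2. The origin recognition subunit Orc6 rose by 1.09. Mki67, a marker of cycling cells, was at 5.91, 5.84 and 6.37 in untreated islets and at 4.90, 4.69 and 5.83 off drug. Its difference of -0.90 had a 95% interval from -2.44 to 0.64 and was not called, although its groups did not overlap. All of these Mki67 levels lay in the range of the bacterial controls. The replication clamp Pcna had a difference of 0.42 with an interval from -0.35 to 1.19.

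In the Myc network, the Myc antagonist Mxi1 rose by 1.88 ± 0.24 (adjusted p 2.63e-05) from 6.07, 6.91 and 6.73 to 8.40, 8.35 and 8.61. The partner Max rose by 0.91, and Fbxw7, which marks Myc for degradation, fell by 1.28. Myc itself had levels between 3.52 and 4.19 on the 6 arrays, in the range of the bacterial controls, and was not called. Its probe set was not tested for whether it reads the transgene. The brightest Esr1 probe set had a mean of 12.06 in untreated and 11.64 off drug, a difference of -0.42 that was not called, while 1 of its 3 other probe sets was called lower at -0.40. Bcl2l1, the gene of BclXL, had a difference of 0.16, not called, and its second probe set was called lower at -0.31. In the apoptosis list 3 of 41 genes rose and 5 fell (7.32% and 12.2%, against 14.1% and 12.3% of all genes). Cidea, a lipid droplet protein with a domain of apoptosis effectors, rose by 1.52 from 6.36, 6.32 and 6.33 to 7.44, 8.22 and 7.92, and the death receptor adaptor Tradd fell by 0.80. Sesn1, a p53 target, rose by 0.74, but 1 of the 18 p53 pathway genes rose and 2 fell (5.56% and 11.1%).

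The insulin and amylin genes had no called difference in their brightest probe sets. Ins2 had a mean of 13.82 in untreated and 13.74 in islets off drug, and its second probe set was called lower at -0.40. Iapp, the amylin gene, had means of 12.74 and 12.80. None of the 6 measured islet hormone genes was called. Ppy, of pancreatic polypeptide cells, was at 11.25, 11.65 and 11.95 in untreated islets and at 13.43, 13.43 and 12.46 off drug, with a difference of 1.49 and an adjusted p of 0.0681. Gcg and Sst, of alpha and delta cells, had differences of 1.27 and 0.69 with 95% intervals that included 0.

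Pdx1, a master regulator of beta cells, was at 7.12, 6.94 and 7.11 in untreated islets and at 6.49, 6.40 and 6.30 off drug, and fell by 0.66 ± 0.20 (adjusted p 0.0186). Foxa2 rose by 0.69 and Onecut1 fell by 0.27, the only other called genes among 14 beta cell transcription factors. All levels of Pdx1 and Onecut1 in these groups lay in the range of the bacterial controls. Without untreated array 1 none of the 14 was called, and the adjusted p was 0.0641 for Pdx1, 0.0917 for Foxa2 and 0.165 for Onecut1. Pdx1 was also not called without the third array off drug (0.0604), Foxa2 without the second or the third (0.0601 and 0.0615), and Onecut1 without any of 4 single arrays, with adjusted p up to 0.192. With the Gapdh measure of RNA quality as a covariate, which had means of 4.75 in untreated islets and 3.83 off drug, Pdx1 had a difference of -0.53 and an adjusted p of 0.0734. Neurod1 had a difference of 0.26 that was not called. The glucose transporter Slc2a2 had means of 10.52 and 9.80, overlapping groups and an adjusted p of 0.221. Irs2, of insulin signalling, fell by 0.42, from 7.79 to 8.02 in untreated islets to 7.35 to 7.59. Among 25 secretory granule genes 2 rose and 4 fell (8% and 16%, against 14.1% and 12.3% of all genes). Vamp2 rose by 0.70 in 1 probe set of 2. Rab3a fell by 0.41 in its brightest probe set and rose by 0.35 in its other.

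Matrix genes were called higher at about the share of all genes, with some large rises. Of 64 matrix genes 8 rose (12.5%, against 14.1% of all genes) and 1 fell, and Col3a1, a fibrillar collagen, was at 8.56, 8.33 and 8.10 in untreated islets and at 10.12, 10.26 and 10.01 off drug. Its rise was 1.80 ± 0.38 (adjusted p 0.00199), a second probe set rose by 1.83 and another had an adjusted p of 0.0556. Col5a2 rose by 1.13. Stellate and fibroblast genes gave 4 rises and 1 fall of 32, 15.6% called against 26.5% of all genes. Whether more stromal cells or more RNA per cell lay behind these values cannot be told apart in bulk samples. Of 45 endothelial genes none rose and 5 fell (11.1%, against 12.3% of all genes, and 2 genes without untreated array 1), with Pgf down by 0.70 and Pecam1, which marks endothelium, at 8.11 and 8.13. Of 30 neural genes 3 rose and 2 fell (10% and 6.67%, against 14.1% and 12.3% of all genes). The risen ones were Uchl1 by 1.44, Ddc by 1.17 and Tubb3 by 0.97.

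Immune lists had few called genes, and their shares of called falls were near or below that of all genes. The spread behind these calls came from all 27 arrays. Counting genes whose groups did not overlap, 22 of 43 lymphocyte genes lay lower off drug and 0 higher. For chemokine and interleukin genes the counts were 23 and 3 of 67, and for myeloid genes 15 and 4 of 44. Over all 8251 genes they were 1945 and 1606. Of 43 lymphocyte genes 6 fell (14%, against 12.3% of all genes) and none rose, the median was -0.30, and none of the 43 had a higher mean off drug. Cd27, Gzma and Klrk1 fell by 0.63, 0.70 and 0.42, though all levels of Gzma and Klrk1, and of Il12a below, lay in the range of the bacterial controls. Of 67 chemokine and interleukin genes 8 fell (11.9%) and none rose, Il12a by 0.49 among them, and of 44 myeloid genes 2 fell (4.55%). The falls numbered 4, 4 and 1 in these 3 lists without untreated array 1. Defining markers were not called: Ptprc, carried by all leukocytes, had means of 6.40 and 6.11, within the range of the bacterial controls, and Cd74, of antigen-presenting cells, of 10.11 and 10.17. In the interferon list 6 of 54 genes fell and 2 rose (11.1% and 3.7%, against 12.3% and 14.1% of all genes). The fall of Mx1 was thus not shared by most of the list. Irf3 fell by 0.72, and Usp18, which damps interferon signalling, rose by 1.20 from 8.11, 8.78 and 8.83 to 9.93, 9.52 and 9.87.

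Signalling genes had a higher share of falls than all genes, while with all arrays the shares of adhesion and channel genes were near it. Of 59 genes of tumour suppression and of TGF, Wnt and IGF signalling 13 fell (22.0%, against 12.3% of all genes) and 2 rose. The platelet-derived growth factor gene Pdgfa fell by 1.09 from 10.33, 9.75 and 9.67 to 8.63, 8.90 and 8.95, while the receptor Erbb3 rose by 1.27 in 1 probe set of 2. Without untreated array 1 there were 7 falls and 1 rise (11.9% and 1.69%, against 7.57% and 10.2% of all genes). Of 64 adhesion genes 9 fell (14.1%) and 5 rose. Without untreated array 1, 8 fell and 1 rose (12.5% and 1.56%, against 7.57% and 10.2% of all genes). The desmosomal protein Dsp fell by 1.05, and the adherens junction protein Cdh1 was not called at -0.15. Potassium channel gene Kcnh2 fell by 0.63, and 6 of 53 channel genes fell (11.3%) with 1 rise, or 3 and 1 without untreated array 1. Of 29 duct and epithelial genes 5 fell (17.2%, against 12.3% of all genes) and none rose. Without untreated array 1, 4 fell (13.8%, against 7.57% of all genes) and none rose. Pigr, which carries antibodies across epithelia, fell by 1.08. Among 51 chromatin regulators 12 rose and 4 fell (23.5% and 7.84%, against 14.1% and 12.3% of all genes). Without untreated array 1 the counts were 9 and 4. The histone chaperones Rbbp4 and Rbbp7 rose by 1.33 and 1.19. Of 29 nucleotide, polyamine and serine synthesis genes 5 rose and 3 fell (17.2% and 10.3%), or 2 and 0 without untreated array 1. Psat1, of serine synthesis, rose by 1.18 and Cad, of pyrimidine synthesis, by 0.53. Odc1, of polyamine synthesis, fell by 0.81, but was not called without untreated array 1 (adjusted p 0.0566).

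**Figure D3:**
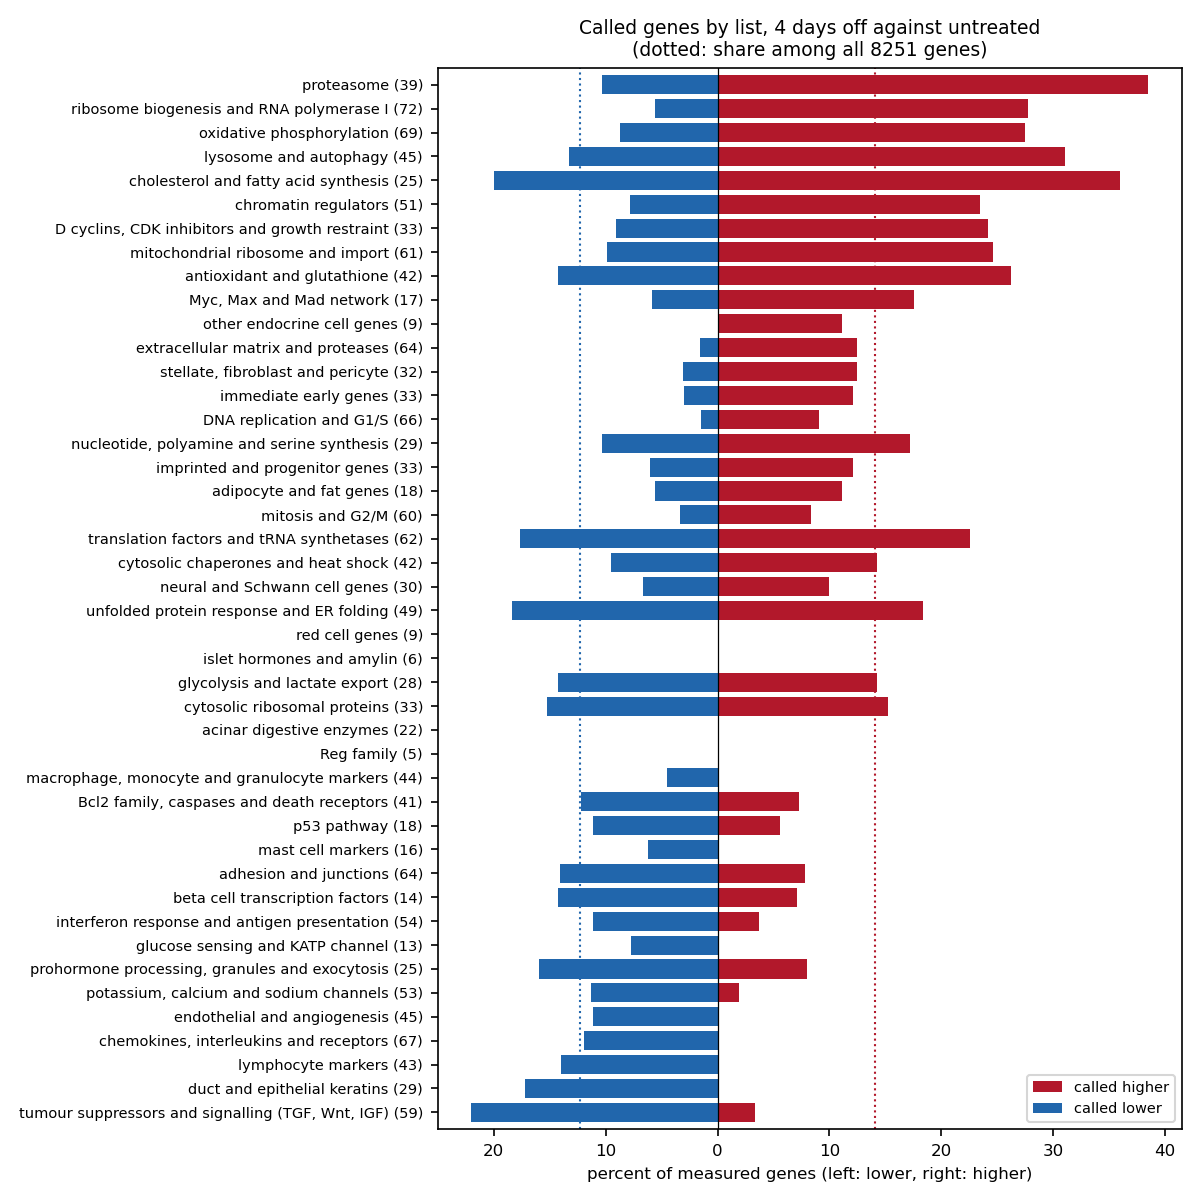
Share of the measured genes of each of 44 lists called higher (red, to the right) and lower (blue, to the left) 4 days off drug against untreated, in percent, with the number of measured genes in brackets; dotted lines mark the shares among all 8251 genes, 14.1% higher and 12.3% lower. Proteasome genes have the highest share of rises (38.5%). With all arrays, the list of tumour suppressors and signalling genes has the highest share of falls (22.0%). The dotted lines do not apply without untreated array 1, where that list had 11.9% falls and all genes 7.57%.

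Markers of other cells and of RNA quality varied between the same arrays. The 22 acinar enzyme genes, from the tissue around the islets, had mean levels of 10.07, 7.60 and 8.15 on untreated arrays 1 to 3 and of 6.78, 7.28 and 8.28 off drug. Their median difference was -1.40, or -0.46 without untreated array 1, and none was called; the enzyme Pnliprp2 came nearest with an adjusted p of 0.0697. The leukocyte lists averaged 6.78, 6.68 and 6.95 in untreated islets and 6.51 to 6.54 off drug, where the groups did not overlap. The 3′ minus 5′ signal of the Gapdh control, larger where RNA is degraded or shortened by amplification, was 4.94, 3.65 and 5.67 in untreated islets and 3.46 to 4.06 off drug. The same signal of the actin control had means in the opposite order, 2.21 untreated and 2.61 off drug. Its levels were 2.10, 2.15 and 2.37 in untreated islets and 2.82, 2.25 and 2.75 off drug, and it was not used as a covariate. With acinar and leukocyte levels as covariates 1909 genes were called, and with the Gapdh measure 2108. Of 119 named genes called, Ccl5, Ttr, Onecut1 and Hspa5 lost the call with the acinar and leukocyte covariates, and Dusp6, Pdx1, Onecut1 and Hspa5 with the Gapdh measure. Eif2s3y, on the Y chromosome, was at 4.15, 7.30 and 8.05 in untreated islets and at 4.27, 4.43 and 6.75 off drug, so the level varied within both groups, and 2021 genes were called with it as a covariate. Actb had means of 10.37 and 10.28.

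**Figure D4:**
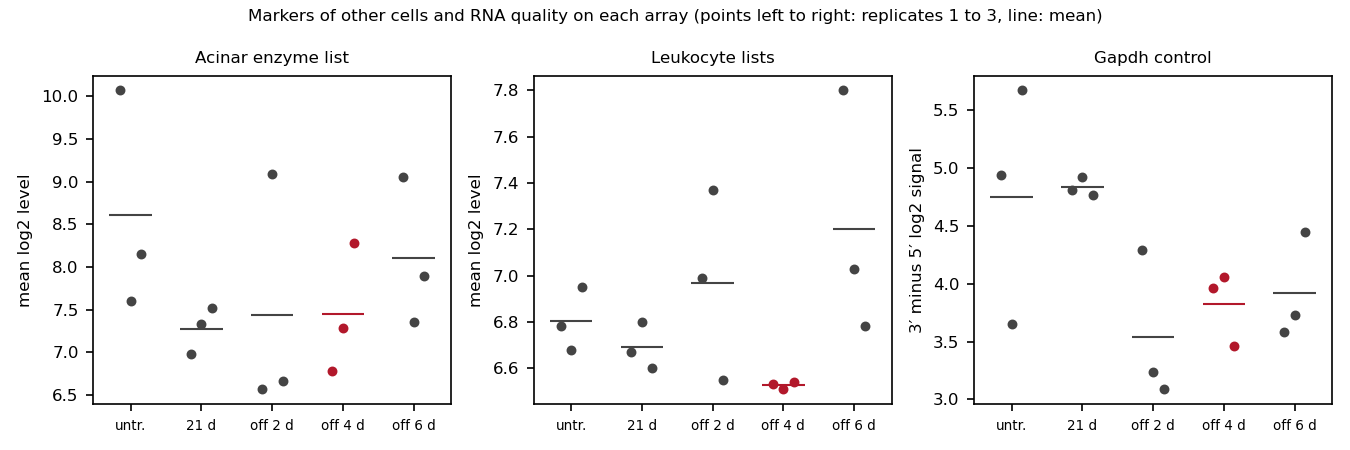
Mean log2 level of the acinar enzyme list and of the 2 leukocyte lists, and the Gapdh control's 3′ signal less its 5′ signal (log2), on each array of 5 groups, with 4 days off drug in red; points from left to right are replicates 1 to 3 and the line is the mean. Untreated array 1 has the highest acinar level of its group (10.07), the 3 arrays 4 days off drug lie between 6.51 and 6.54 for leukocyte genes, and they lie below each 21 day array for the Gapdh control.

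Islets at the end of the 21 day course, whose titles name 4-hydroxytamoxifen while their protocols name tamoxifen, give the level from which the 4 days started. Some genes lay closer to the untreated level after the 4 days, others showed no called difference from 21 days, and others lay farther from untreated islets. Against untreated islets, 1354 genes (16.4%) were called at 21 days, 656 higher (7.95%) and 698 lower (8.46%); these comparisons share the untreated arrays, so values are set side by side only. Directly between 4 days off and 21 days, 570 genes (6.91%) were called, 373 higher (4.52%) and 197 lower (2.39%). That count depended on single arrays. It was 0 without the first array 4 days off drug, 204 without the second and 182 without the third. Without 21 day array 1, 2 or 3 it was 120, 34 and 771. It was 295 with the Gapdh measure as a covariate, which was 4.77 to 4.92 on the 21 day arrays and lower on all 3 arrays off drug. The actin measure had means of 2.39 at 21 days and 2.61 off drug.

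Dlk1 and Cidea were lower after 4 days than at 21 days but still above untreated islets. Dlk1 had means of 7.61 untreated, 11.31 at 21 days and 10.25 after 4 days off, a fall of 1.06 from 21 days (adjusted p 0.0392). Cidea had means of 6.34, 8.94 and 7.86 in the same order and fell by 1.08 (adjusted p 0.0187). For Mx1 and Papss2 the 21 day means were 4.31 and 5.40 and the means off drug 4.36 and 6.04, and neither was called between those groups. Papss2 differed by 0.63 ± 0.32. Cyfip2, Atp2a3 and Fam151a had differences from 21 days of 0.11 or less in size, with SEs of 0.29, 0.23 and 0.22. Rufy3 and Mxi1 had 21 day means of 9.12 and 8.25 and means off drug of 9.95 and 8.45. Neither was called between those groups.

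Some secretory pathway genes were lower at 21 days and higher again after 4 days. Others were not lower at 21 days: the untreated and 21 day means were 9.03 and 9.72 for Ssr3, 7.85 and 8.28 for Pdia3, and 7.35 and 7.53 for Sec61b. The unfolded protein response list had a median of -0.35 at 21 days against untreated and of 0.04 after 4 days off. At 21 days 11 of 49 were called lower and 1 higher, where 8.46% and 7.95% of all genes were. Between 21 days and 4 days off 16 rose and 1 fell, where 4.52% and 2.39% of all genes did. None was called in that comparison without the first array off drug. Xbp1 had means of 9.77 untreated, 7.91 at 21 days and 9.24 off drug, and the rise of 1.33 from 21 days had an adjusted p of 0.00846. Creld2, with 8.70, 6.42 and 7.61, rose by 1.18 from 21 days and remained called lower against untreated islets. Hspa5, the main chaperone of the compartment and also named after its values were seen, had means of 10.51, 10.05 and 11.44 and rose by 1.39 from 21 days. Against untreated islets it was called higher by 0.93, but not without untreated array 1 or without any 1 array off drug (adjusted p 0.0543 to 0.206). Nor was it called with the acinar and leukocyte covariates (0.116) or with the Gapdh measure (0.0625). Esr1 rose by 1.17 from a mean of 10.47 at 21 days.

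A few mitosis genes were lower after the 4 days. At 21 days the list had a median of 0.56 against untreated and 13 of 60 genes called higher, while after 4 days off the median was -0.05; between the latter groups 4 of 60 fell, where 2.39% of all genes did, and none rose. Mki67 had a 21 day mean of 7.06, and its difference of -1.92 from there had an adjusted p of 0.107. A further set stood farther from untreated after 4 days than at 21 days. Ndufb6 had means of 7.17, 7.88 and 8.83, and Psma4 of 8.13, 8.20 and 9.25, with rises from 21 days of 0.95 and 1.05 (adjusted p 0.00846 for both). Mrpl2, Mrps22, Txnrd2, Psma7, Sqle, Idi1 and Kl had rises from 21 days between 0.84 and 1.18. In the proteasome list 10 of 39 genes rose against 21 days and none fell, where 4.52% and 2.39% of all genes did. Without the first array off drug no gene of the array was called in this comparison. Counting by means alone, 958 of the 1167 genes called higher had a 21 day mean between the untreated mean and the mean off drug, 135 had one beyond the mean off drug, and 74 lay on the other side of the untreated mean. For the 1016 called lower these counts were 708, 258 and 50. The genes were chosen for a difference between the untreated mean and the mean off drug, which by itself favours a 21 day mean between them. These counts therefore do not show how genes moved after 21 days.

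**Figure D5:**
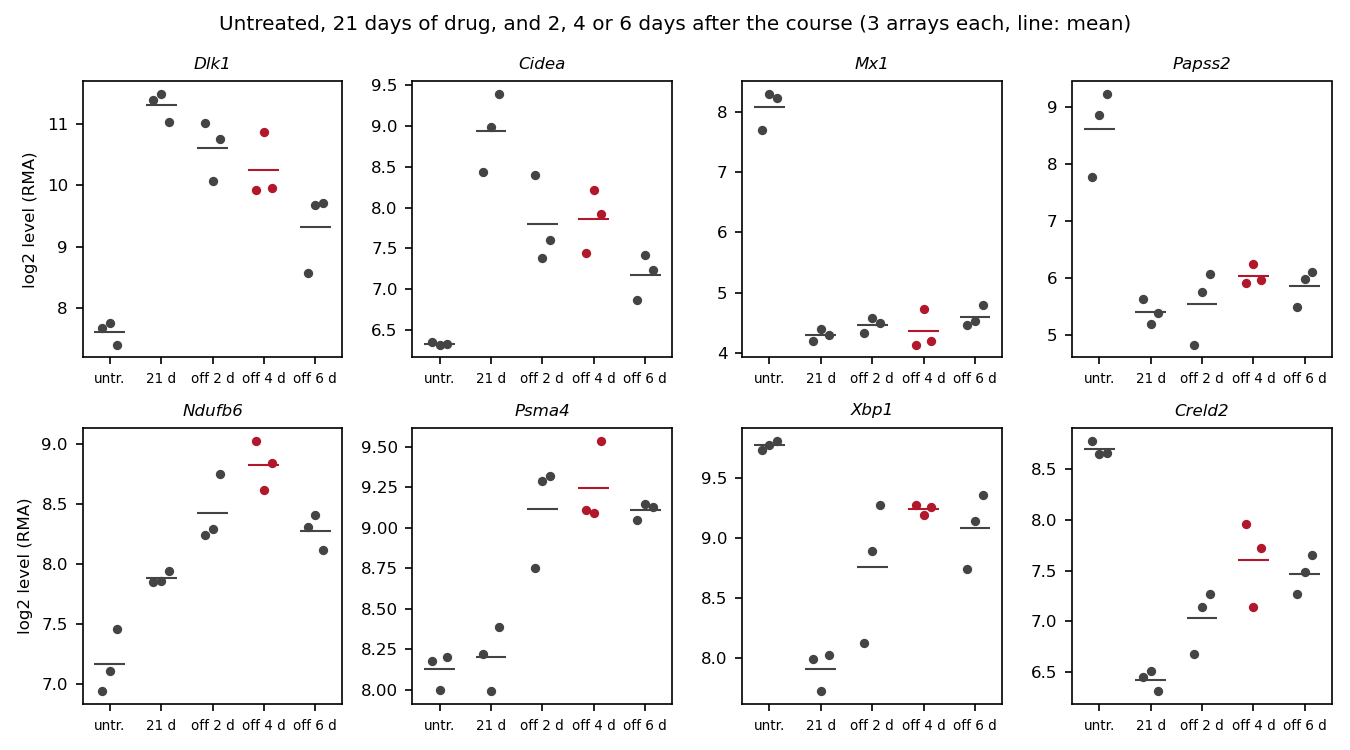
Log2 level of 8 genes in untreated islets, after 21 days of drug and after 2, 4 or 6 days without it, each point 1 array and each line the mean of 3, with 4 days off drug in red. Dlk1 and Cidea lie lower 4 days off drug than at 21 days, Mx1 and Papss2 are low in all 4 groups that had the course, Ndufb6 and Psma4 are higher off drug than at 21 days, and Xbp1 and Creld2 lie between the 21 day and untreated means.

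No gene was called between day 4 and a neighbouring day in the main fit, which with 3 arrays each does not show that the days were alike. Between 4 and 2 days off, 0 genes (0%) were called in limma, with 476 at an unadjusted p under 0.05, and between 4 and 6 days off 0 (0%) with 1600 at that level. With array weights 1 and 1141 genes were called in these comparisons. Means of Dlk1 were 10.62, 10.25 and 9.33 at 2, 4 and 6 days off, and those of Cidea 7.79, 7.86 and 7.18. Ndufb6 had means of 8.43, 8.83 and 8.28 on these days, Postn of 8.65, 9.15 and 8.04, and Mxi1 of 8.70, 8.45 and 7.41. None of these differences passed the adjustment, so an order of the 3 days is not given.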

How the data were processed

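The arrays measured RNA of laser-captured islets. The deposited values are log2 expression levels per probe set that the authors made with RMA, per the submitters' processing notes, and its version is not given in the sources used here. The method corrects background, equalises the arrays' distributions and summarises probes, so a shift shared by all genes would be lost.

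The table holds 12488 probe sets, of which 66 are controls and 12422 were tested. By the platform annotation 10833 have 1 gene symbol, 396 several and 1193 none, and 10817 were updated through Entrez numbers. The 8251 genes were each represented by the probe set with the highest mean over 27 arrays, and 2073 genes had more than 1. Suffixes such as _r_at, _f_at, _s_at and _i_at mark probe sets chosen under relaxed rules or shared by related transcripts. limma 3.58.1 in R 4.3.3 was fitted to 9 groups of 3 arrays with eBayes and Benjamini-Hochberg adjustment over all 12422, and the procedure was tested on simulated data. Intervals are 95% and unadjusted. An exact permutation test of 3 against 3 cannot go below 0.1 and was not used. Arrays give no read depth, and their number limits the precision.

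Named genes are the 15 largest rises and falls among called genes whose groups did not overlap, up to 3 called members per list with the largest change, the lowest p of each list and a panel of reference genes. Not all are printed, and exceptions are marked; 145 genes were followed under other settings. The 44 lists hold 2043 symbols, of which 1620 were measured. Members and lists were chosen with earlier results of these data known. Same-numbered untreated and 4 days off arrays had deviations correlated at -0.236, -0.0148 and -0.187. Deviations within a group cancel, so these values are not independent and cannot decide whether the numbers pair samples.

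Alternatives tried were array weights, quantile normalization, median centring, a filter on the dimmest 40% of probe sets, trend and robust fits, the 6 arrays alone, a replicate block, averaging all probe sets per gene, a 2-fold minimum, an adjusted p under 0.1, covariates for acinar and leukocyte levels, Gapdh and Eif2s3y, and leaving out each array. List counts without untreated array 1 were chosen after seeing the data.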

Additional observations from a re-analysis of the deposited data

Results flagged for a closer look

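Of 145 genes followed, 23 differed between 4 days off drug and the end of the 21 day course by a test of that difference in limma, 19 higher and 4 lower, with adjusted p from 0.00846 to 0.0498. Among secretory pathway genes the differences on the log2 scale were 1.39 for Hspa5, 1.33 for Xbp1, 1.18 for Creld2 and 1.03 for Sec61b. Proteasome subunits Psma4, Psma7 and Psma5 differed by 1.05, 0.93 and 0.61. For mitochondrial genes the values were 1.18 for Mrpl2, 1.0 for Mrps22, 0.95 for Ndufb6 and 0.78 for Ndufv2, and 1.03 for the reductase Txnrd2. The sterol enzymes Idi1 and Sqle differed by 1.07 and 0.84, and the chaperonin subunit Cct8 by 0.82. Esr1 differed by 1.17, Kl by 1.15, the phosphatase Dusp6 by 0.99 and Usp18 by 0.73. Lower than at 21 days were Cidea at -1.08, Cox6b2 at -1.07, Dlk1 at -1.06 and Irs2 at -0.42. Other probe sets of Cox6b2 disagreed in direction against untreated islets, so its direction is uncertain. Without the first array 4 days off drug no gene of the array was called in this comparison, so all 23 rest on that array being included.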

How the results depend on the processing

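Between 4 days off and untreated islets, 2183 genes were called, and the count was 453 with a 2-fold minimum. It ranged from 1705 (the 6 arrays alone) to 2905 (adjusted p under 0.1) under the remaining settings that kept all arrays, and from 1463 to 2416 when 1 array was left out. Against 21 days the 570 calls became 2361 with array weights, 70 with a 2-fold minimum, 1381 at an adjusted p under 0.1 and 295 with the Gapdh covariate, and ranged from 0 to 771 without single arrays. The share of those calls that were higher was 65.4%, 79.1% of 513 with median centring and 43.3% with array weights, where falls outnumbered rises by 1339 to 1022. Against 2 days off, array weights gave 1 call in place of 0. Against 6 days off, array weights gave 1141 in place of 0, and leaving out 1 array gave 0 to 15. The cause was not tested. With the replicate block the counts were 2227 against untreated, 559 against 21 days, and 0 against both 2 and 6 days off. The labels give these samples only a number, and whether it pairs them is not known. Of 119 named genes called against untreated islets, 102 stayed called whichever of the 6 arrays was left out, and no direction reversed. Of 484 list medians under alternatives, 431 moved by less than the spread between arrays. Differences among dim genes, under the highest bacterial control of 7.14, are limited by signal over background.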
